A study of Mus musculus with 6 samples.

Results

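The Hox genes are 4 clusters of homeobox transcription factor genes, Hoxa to Hoxd, whose members give cells along the trunk and limbs their position. They were measured here in mineral-forming cells of the mouse head. The members are all probes whose symbol in the platform annotation is Hoxa, Hoxb, Hoxc or Hoxd followed by a number: 50 probes for 38 genes, of 25697 probes and 16593 named genes on the Illumina bead array. Of the 38 genes, 29 had a single probe, 6 had 2 and 3 had 3.

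The RNA came from GFP-positive cells, sorted from OC-GFP mice on the C57Bl6/J background. OC-GFP is a reporter of osteocalcin, so the sort selects cells of the mineral-forming lineage and leaves out the rest of the tissue only as far as the gate does. The 3 osteoblast samples were taken from calvarial bone, the roof of the skull, each pooled from 6 mice of both sexes. The 3 cementoblast samples came from the surface of extracted molars, where these cells lay down the mineral of the tooth root, and were pooled from 7, 10 and 6 mice. All mice were 5 to 7 weeks old, and both groups carried the same reporter. The labels do not say which skull bones were taken, or whether the same mice gave both tissues. Neither group is a trunk or limb tissue, so the series holds no sample in which Hox signal would be sought as a check on the probes.

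In the embryo, the Hox genes of a cluster are switched on in their order along the chromosome, the low-numbered ones furthest towards the head. The neural crest cells that migrate into the jaw and make its bones, the frontal bone and the tooth mesenchyme are known for carrying no active Hox gene. The crest of the second pharyngeal arch, behind it, is patterned by Hoxa2. Silent Hox clusters are held by Polycomb group proteins, and active ones by Trithorax group proteins. Hox proteins bind DNA together with TALE homeobox cofactors of the Meis and Pbx families.

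The promoters of 22 of the 38 genes, 24 windows of 300 bases from 250 before to 50 after the start, were found in the RefSeq tables of GRCm38.p6. The count of CG pairs, a dinucleotide that reads the same on both strands and is the usual feature of promoters under Polycomb control, ran from 4 to 45 with a median of 14.5. In all 32851 windows of the same length the median was 7. At least 10 pairs were found in 17 of the 24 Hox windows (70.8%) and in 43.5% of all windows. The 3 windows below are shown because they span that range and belong to genes to which the results return: Hoxa13, which held a detected probe, its paralogue Hoxd13 and the myeloid gene Hoxa9, neither of which was detected. Capitals mark the CG pairs.
Hoxa13 (GRCm38.p6, chr6:52260831-52261130, minus strand): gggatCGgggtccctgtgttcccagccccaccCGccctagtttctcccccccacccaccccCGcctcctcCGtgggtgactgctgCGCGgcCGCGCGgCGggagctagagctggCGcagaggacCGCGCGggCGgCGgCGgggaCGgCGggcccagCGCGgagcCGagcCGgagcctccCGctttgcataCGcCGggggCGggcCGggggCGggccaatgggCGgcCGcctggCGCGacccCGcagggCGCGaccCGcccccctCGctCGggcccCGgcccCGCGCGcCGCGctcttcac
Hoxd13 (GRCm38.p6, chr2:74667975-74668274, plus strand): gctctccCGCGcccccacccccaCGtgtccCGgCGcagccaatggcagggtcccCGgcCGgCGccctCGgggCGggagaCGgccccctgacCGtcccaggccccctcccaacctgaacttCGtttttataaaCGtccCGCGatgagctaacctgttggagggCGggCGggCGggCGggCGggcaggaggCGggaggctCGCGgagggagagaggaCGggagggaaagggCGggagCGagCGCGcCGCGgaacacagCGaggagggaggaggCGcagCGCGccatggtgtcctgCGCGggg
Hoxa9 (GRCm38.p6, chr6:52227321-52227620, minus strand): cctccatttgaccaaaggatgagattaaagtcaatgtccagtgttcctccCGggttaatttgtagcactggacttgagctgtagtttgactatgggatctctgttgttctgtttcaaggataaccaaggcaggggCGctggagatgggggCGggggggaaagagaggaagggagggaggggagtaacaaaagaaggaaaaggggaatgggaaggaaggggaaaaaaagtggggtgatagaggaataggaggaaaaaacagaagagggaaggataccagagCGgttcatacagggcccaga
The Hoxa13 window held 45 CG pairs and the Hoxd13 window 37, the highest counts of the 24, and the Hoxa9 window held 4, the lowest count, which windows of Hoxd4 and Hoxd11 shared. A CG count describes the sequence and says nothing about its state in these cells, which was not measured.

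The question of the measurement was whether cells of both head tissues lack Hox signal, and which genes are exceptions. Nearly all Hox genes lay at background in both groups. A probe counted as detected where the deposited detection p, set against negative control beads of the same array, was under 0.05, a threshold that 5% of probes without any target pass. Of 300 Hox readings (50 probes on 6 arrays), 17 were detected, or 5.67%, and 142 had a detection p over 0.5. Over all probes 41.9% of readings were detected. In a bulk sample, fewer cells that express a gene and less RNA per cell cannot be told apart, and a gene below detection may still be transcribed at a low level.

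Hox probes were rarely detected on any single array. On osteoblast replicates 1, 2 and 3, 0, 4 and 6 of the 50 Hox probes were detected, against 33%, 51.9% and 50.3% of all probes. On cementoblast replicates 1, 2 and 3 the counts were 2, 2 and 3, against 38.1%, 39.1% and 39.1% of all probes. The osteoblast arrays with the most Hox probes were thus those with the most detected probes of any kind, and the part of this in the Hox counts was not tested. The median detection p of the 50 probes was 0.539, 0.496 and 0.392 on the osteoblast arrays and 0.458, 0.499 and 0.474 on the cementoblast arrays, where probes without a target would centre on 0.5. With each array left out in turn, the share of detected readings ran from 4.40% to 6.80%.

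At least 1 array detected 11 of the 50 probes, where the share over all probes was 63%. The other 39 were detected on none of the 6 arrays, or 78%, against 37% of all probes. No Hox probe was detected on all 3 osteoblast arrays and 1 was on all 3 cementoblast arrays. The shares over all probes were 30.1% and 28.6%. No Hox gene was detected on all 6 arrays, while 5022 of the 16593 named genes were.

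**Figure D1:**
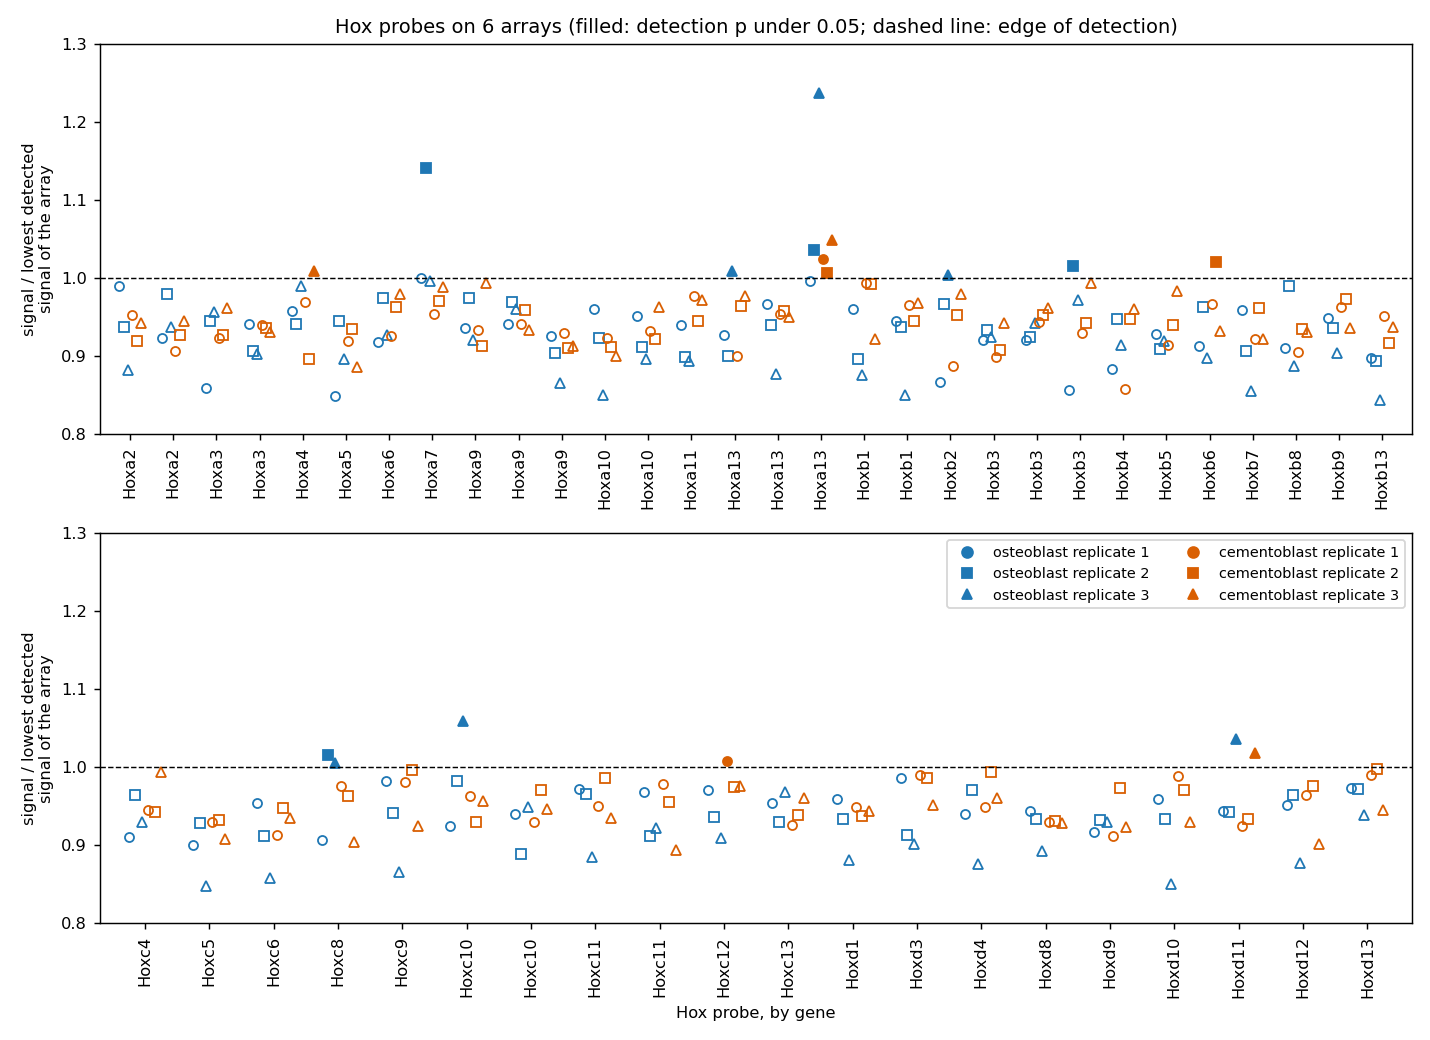
Signal of each of the 50 Hox probes divided by the lowest detected signal of the same array (vertical axis, no unit, shown from 0.8 to 1.3), for 3 osteoblast arrays (blue) and 3 cementoblast arrays (orange); circles, squares and triangles are replicates 1, 2 and 3, and filled symbols have a detection p under 0.05. Of 300 readings 17 are filled, 5 of them at a single Hoxa13 probe, and the highest, 1.24 times the edge of detection, is that probe on osteoblast replicate 3.

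The anterior genes come first among those of interest in the head. Paralogue groups 1 to 3, which pattern the hindbrain and the pharyngeal arches, were covered by 12 probes for 7 genes. Of their 72 readings 2 were detected, 2.78%, and both were in osteoblasts. Hoxa2, the selector of the second arch, was below detection at both its probes on all 6 arrays, with detection p from 0.0927 to 0.853. Hoxa3, which patterns the third arch, and Hoxb1, the gene of the fourth hindbrain segment, were also below detection on all arrays. The lowest detection p of Hoxb1 were 0.0677 and 0.0752, on cementoblast replicates 1 and 2 at the same probe. Hoxd1 and Hoxd3 were not detected either. The 2 readings belonged to Hoxb2, a hindbrain gene, on osteoblast replicate 3 (detection p of 0.0451), and to a single one of the 3 probes of Hoxb3 on osteoblast replicate 2 (detection p of 0.0213).

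Groups 4 to 8, whose genes pattern the neck and thorax, had 5 of 90 readings detected, 5.56%. Hoxa7 and Hoxc8 accounted for 3 of them. Signals of single genes given without log2, here and below, are before normalization. The median signal of all probes was 81.2, 95.6 and 111 on osteoblast replicates 1, 2 and 3. On cementoblast replicates 1, 2 and 3 that median was 82.7, 78.5 and 81.7. Hoxa7, a thoracic gene that is also active in blood progenitors, had signals of 83.7, 108 and 110 on osteoblast replicates 1, 2 and 3 and of 80.9, 77.9 and 83.1 on the cementoblast arrays. It was detected on osteoblast replicate 2, with a detection p of 0.00251 and a signal 1.14 times that array's edge of detection, the lowest detected signal. Both other osteoblast arrays lay just outside the threshold, with a detection p of 0.0514. After normalization the log2 signal of Hoxa7 was 4.76 ± 0.36 in osteoblasts and 4.40 ± 0.17 in cementoblasts (SD, n = 3 each), and the groups overlapped.

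Hoxc8, a thoracic gene, had signals of 75.9, 96.2 and 111 on the osteoblast arrays and of 82.8, 77.3 and 76.0 on the cementoblast arrays. It was detected on osteoblast replicates 2 and 3, with detection p of 0.0226 and 0.0451, and on no cementoblast array. Its signals were 1.02 and 1.00 times the edge of detection there, and the mean log2 signals of the groups were 4.33 ± 0.16 and 4.28 ± 0.13 (SD, n = 3 each). The groups overlapped, and the difference of -0.04 had a 95% interval of -0.34 to 0.25 (all probes fitted with no filter). The remaining 2 readings of these groups were Hoxa4 on cementoblast replicate 3 (detection p of 0.0338) and Hoxb6 on cementoblast replicate 2 (detection p of 0.00752). Hoxb6 had a log2 signal of 5.15 there and of 4.16 to 4.33 on the other 5 arrays.

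Groups 9 to 13, whose genes pattern the lower trunk, the limbs and the urogenital tract, had 10 of 138 readings detected, 7.25%, and 6 of the 10 were Hoxa13. Hoxd11, a gene of the forearm, had signals of 79.0, 89.3 and 115 on the osteoblast arrays and of 78.4, 74.9 and 85.6 on the cementoblast arrays. It was detected on replicate 3 of each group, with detection p of 0.0226 and 0.0213. Its log2 signals were 4.30 ± 0.14 in osteoblasts and 4.45 ± 0.46 in cementoblasts (SD, n = 3 each), and the groups overlapped. Hoxc10, of the lumbar region, was detected at 1 of its 2 probes on osteoblast replicate 3 (detection p of 0.0113), and Hoxc12 on cementoblast replicate 1 (detection p of 0.0276). Among the genes never detected, Hoxd13, the digit gene, came closest to the threshold, with a detection p of 0.0526 on cementoblast replicate 2. Hoxb13, a gene of the prostate and hindgut, and Hoxa11, of the forearm, were below detection on all 6 arrays.

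Hoxa13, which patterns the hand, the foot and the urogenital tract, was the clearest exception, at 1 of its 3 probes. Probe ILMN_3087004 had signals of 83.4, 98.0 and 137 on osteoblast replicates 1, 2 and 3, and of 86.9, 80.7 and 88.2 on cementoblast replicates 1, 2 and 3. It was detected on all of them but osteoblast replicate 1 (detection p of 0.0614). The other detection p were 0.0125 and 0.00125 in osteoblasts and 0.0125, 0.0338 and 0.00501 in cementoblasts. The signals stood at 1.01 to 1.24 times the edge of detection on the 5 arrays that detected it.

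The other probes of Hoxa13 did not follow it. Probe ILMN_3015589 was not detected on any array, with p from 0.287 to 0.670, and probe ILMN_1237317 was detected on osteoblast replicate 3 alone (detection p of 0.0401). All 3 are annotated to the same gene, and which of them reports its transcript was not tested, since probe sequences were not used here. Without ILMN_3087004, 12 of 294 Hox readings were detected, or 4.08%. At a detection p under 0.01 it remained detected on osteoblast replicate 3 and cementoblast replicate 3 only.

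The same gene was the only Hox gene that entered the comparison of the groups, which tested 8111 genes with a probe detected on at least 3 arrays. ILMN_3087004 had log2 signals of 5.00, 4.49 and 4.84 in osteoblasts and 5.22, 4.87 and 5.24 in cementoblasts, and the groups overlapped. The means were 4.78 ± 0.26 and 5.11 ± 0.21 (SD, n = 3 each). The difference, cementoblast minus osteoblast, was 0.33 (SE 0.26, 95% interval -0.26 to 0.93; limma adjusted p = 0.94 over all genes). Hoxa13 had no unadjusted p under 0.05 either (0.230), where 6.92% of all genes passed; 0.321% passed after adjustment.

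Since 37 Hox genes never reached that comparison, the test was repeated with no filter. With every gene given its brightest probe, 0 of the 38 Hox genes had an unadjusted p under 0.05, against 5.96% of all genes. All 25697 probes were then fitted on their own, an alternative added after seeing the data. None of the 50 Hox probes passed limma's test after adjustment and none had an unadjusted p under 0.05, where 0.0428% and 5.56% of all probes did. The smallest unadjusted p was 0.111, at Hoxa11. Differences ran from -0.37 (Hoxa7) to 0.35 (Hoxb6). At 49 of the 50 probes the 95% interval of the difference lay within 1 on the log2 scale in either direction, and at Hoxb6 it reached 1.02. Between signals at background such an interval bounds the difference of the signals and not of the transcripts. Of the 50 probes 74% lay above 0 in this fit, with a median of 0.02, where 49.7% of all probes lay above 0. All probes are an unlike measure here, since far more of their readings were detected. Among the olfactory receptors described below, 19 of the 26 genes tested with the filter lay above 0 as well. The source of this lean was not tested. The osteoblast and cementoblast arrays did not overlap at 3 Hox probes, of Hoxa11, Hoxb13 and Hoxd8, or 6% of them against 11.1% of all probes, and none of these 3 was detected on any array.

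Each cluster had some detected readings. They made up 7.84% in Hoxa (8 of 102), 3.85% in Hoxb (3 of 78), 6.06% in Hoxc (4 of 66) and 3.7% in Hoxd (2 of 54). Log2 signals of the 39 probes never detected ran from 4.09 to 4.84. The 28 genes that no probe detected were Hoxa2, Hoxa3, Hoxa5, Hoxa6, Hoxa9, Hoxa10, Hoxa11, Hoxb1, Hoxb4, Hoxb5, Hoxb7, Hoxb8, Hoxb9, Hoxb13, Hoxc4, Hoxc5, Hoxc6, Hoxc9, Hoxc11, Hoxc13, Hoxd1, Hoxd3, Hoxd4, Hoxd8, Hoxd9, Hoxd10, Hoxd12 and Hoxd13.

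Genes known chiefly from sensory organs were counted on the same arrays for comparison. Olfactory receptors, which serve smell in the nasal epithelium, had 5.38% of readings detected at 1143 probes, and vomeronasal receptors, which sense pheromones, 4.84% at 162 probes. Both sets were chosen after seeing the data. The share of probes detected on no array was 77.7% and 82.1%, beside 78% of the Hox probes. By array the Hox shares ran from 0% to 12% and the olfactory ones from 2.27% to 8.66%. Osteoblast replicate 3 was the array with the highest Hox share (12%) and the lowest olfactory share (2.27%). Its Hox signals at the detected probes were within 1.06 times the edge of detection except at ILMN_3087004.

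**Figure D2:**
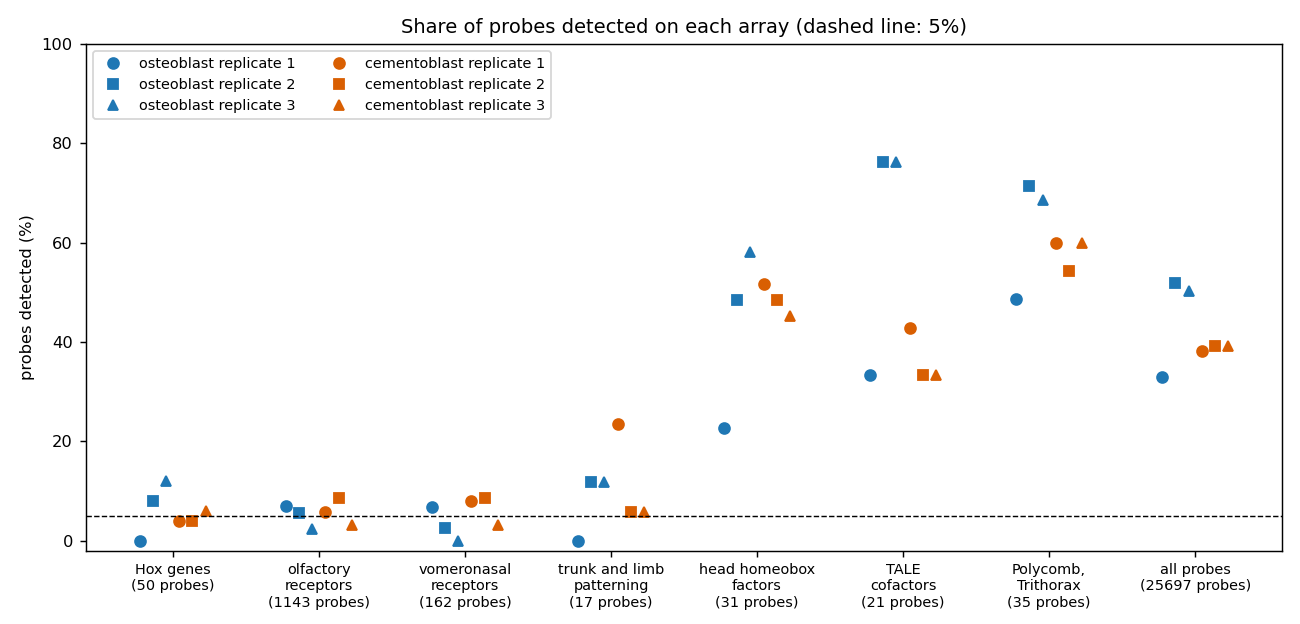
Share of probes detected at p under 0.05 (vertical axis, percent) on each of the 6 arrays for 8 sets of probes, with the number of probes under each name; symbols as in the legend, blue for osteoblasts and orange for cementoblasts, and a dashed line at 5%. Hox probes lie at 0% to 12%, near the olfactory and vomeronasal receptors, and the head homeobox factors, TALE cofactors and Polycomb and Trithorax genes lie at 22.6% to 76.2%.

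Other homeobox genes were detected on the same arrays. Of 31 probes for 24 head homeobox factors outside the clusters, 18 were detected on at least 3 arrays, or 58.1%, against 2% of Hox probes and 43.6% of all probes. The 14 factors tested had a median difference of 0.45, against -0.02 over all genes. The filter let genes enter through 1 group alone. Dlx2 was detected on 3 cementoblast arrays and no osteoblast array, and Dlx5 and En1 on 3 osteoblast arrays and no cementoblast array. The part of the filter in this median was not tested. Two-sided limma tests over all genes put Barx1 (3.92, SE 0.28; adjusted p = 0.00661) and Dlx1, factors of the jaw and molar, higher in cementoblasts and En1, of the skull, lower. Over all 8111 genes tested, 12 were higher and 14 lower, or 0.321% in either direction. Barx1 and Dlx1 were each detected on 1 osteoblast array and En1 on no cementoblast array, so these differences are taken against background. None of these 3 calls held without cementoblast replicate 2 (differences of 4.03, 3.80 and -2.33), with 75th percentile scaling (1.39, 1.21 and -0.45) or with the replicate number as a block (3.92, 3.47 and -2.12; limma adjusted p of 0.069, 0.069 and 0.122). Barx1 passed with any other array left out, Dlx1 only without cementoblast replicate 3, and En1 was lost without cementoblast replicate 1 as well (adjusted p of 0.0916) and was not tested with an osteoblast array left out. With the submitters' values Dlx1 and En1 were also lost (limma adjusted p of 0.0563 and 0.0558), as they were with no background correction (0.11 and 0.0956). Dlx1 was lost with no filter as well (limma adjusted p of 0.109). The median of the 14 factors was 0.30 with 75th percentile scaling. Patterning genes of the trunk and limbs outside the Hox clusters were, like the Hox genes, seldom detected: 1 of 17 probes reached at least 3 arrays. That gene was Meox2, a factor of the somites and limb muscle, at 5.51 ± 0.83 in osteoblasts and 4.58 ± 0.64 in cementoblasts (SD, n = 3 each; limma adjusted p = 0.828).

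Several genes of the TALE list, which holds the Meis and Pbx cofactors, were detected on all 6 arrays, while no Hox gene was. Of 9 TALE genes on the array, 7 were tested, 1 was lower in cementoblasts and none higher, where 0.321% of all genes tested passed. The median difference of the TALE genes was -0.02, the same as over all genes. With 75th percentile scaling the TALE median turned to 0.03. Meis2 was at 7.26 ± 0.24 in osteoblasts and 4.56 ± 0.32 in cementoblasts (SD, n = 3 each; limma adjusted p = 0.0155), where 1 array detected it. The call was lost without osteoblast replicate 2 or 3 or cementoblast replicate 1 or 2 (limma adjusted p of 0.0927, 0.0843, 0.0744 and 0.0784), with 75th percentile scaling (-1.01), with the replicate number as a block (-2.70; limma adjusted p = 0.097) and with no filter. Meis1, its paralogue, stood at 6.77 ± 0.26 and 4.92 ± 0.52 (SD, n = 3 each; limma adjusted p = 0.0858). Pbx2, Pknox1 and Tgif1 were detected on all 6 arrays and differed by -0.01, 0.17 and -0.02, and Meis3 and Pknox2 by -0.45 and 0.19, none past the test. Pbx3 and Tgif2 were not tested.

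Of 22 Polycomb and Trithorax genes on the array, 12 were detected on all 6 arrays. They included Suz12 and Eed, which belong to the complex that marks silent Hox chromatin by methylation, Ring1, of the second Polycomb complex, and Kdm6a, a demethylase that opposes them. Suz12 was at 7.99 ± 0.50 in osteoblasts and 8.18 ± 0.19 in cementoblasts (SD, n = 3 each), and Ring1 at 6.74 ± 0.31 and 6.63 ± 0.70. None of the 18 tested passed, with a median of -0.10 (-0.03 with 75th percentile scaling) and the smallest p at Cbx2, detected on 3 osteoblast arrays and on no cementoblast array (-0.53; limma adjusted p = 0.879). Of the upstream activators, Cdx2 and Cdx4, which drive posterior Hox genes in the embryo, were below detection on all 6 arrays and Cdx1 was detected on 1. Egr2, of the same list, was detected on all 6 arrays, at 8.35 ± 1.07 in osteoblasts and 8.45 ± 0.58 in cementoblasts (SD, n = 3 each). Of the retinoic acid receptors, which act on anterior Hox genes, Rarg was detected on all 6 arrays, as was Rxrb. Rarb had the smallest p among the 5 activators tested and had log2 signals of 4.97 ± 0.13 in the osteoblast group and 6.30 ± 0.59 in the cementoblast group (SD, n = 3 each; limma adjusted p = 0.226). None of the 5 passed, and their median was 0.01, which turned to -0.20 with 75th percentile scaling and to -0.04 with the submitters' values.

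Genes next to the clusters were counted in the same way. The nearest 5 protein-coding genes on each side were taken from the annotation, and 37 of these 40 had probes. Of the 37, 16 were detected on all 6 arrays and 7 on none, or 43.2% and 18.9%. Over all named genes the shares were 30.3% and 32.4%, and the counts among the 38 Hox genes were 0 and 28. Skap2, an adaptor protein gene beside the Hoxa cluster, and Hibadh, a mitochondrial dehydrogenase gene beyond Evx1 at the Hoxa13 end, were detected on every array. Evx1 and Evx2, homeobox genes that flank Hoxa13 and Hoxd13, were detected on 1 array and on none. Among the neighbours listed by name for the test, 7 of 13 were tested and none passed, with a median of -0.05 (-0.40 with 75th percentile scaling and -0.15 with the submitters' values) and the smallest p at Smug1, a DNA repair gene (-0.57; limma adjusted p = 0.897). The borders were drawn by gene order alone, and chromatin was not measured.

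**Figure D3:**
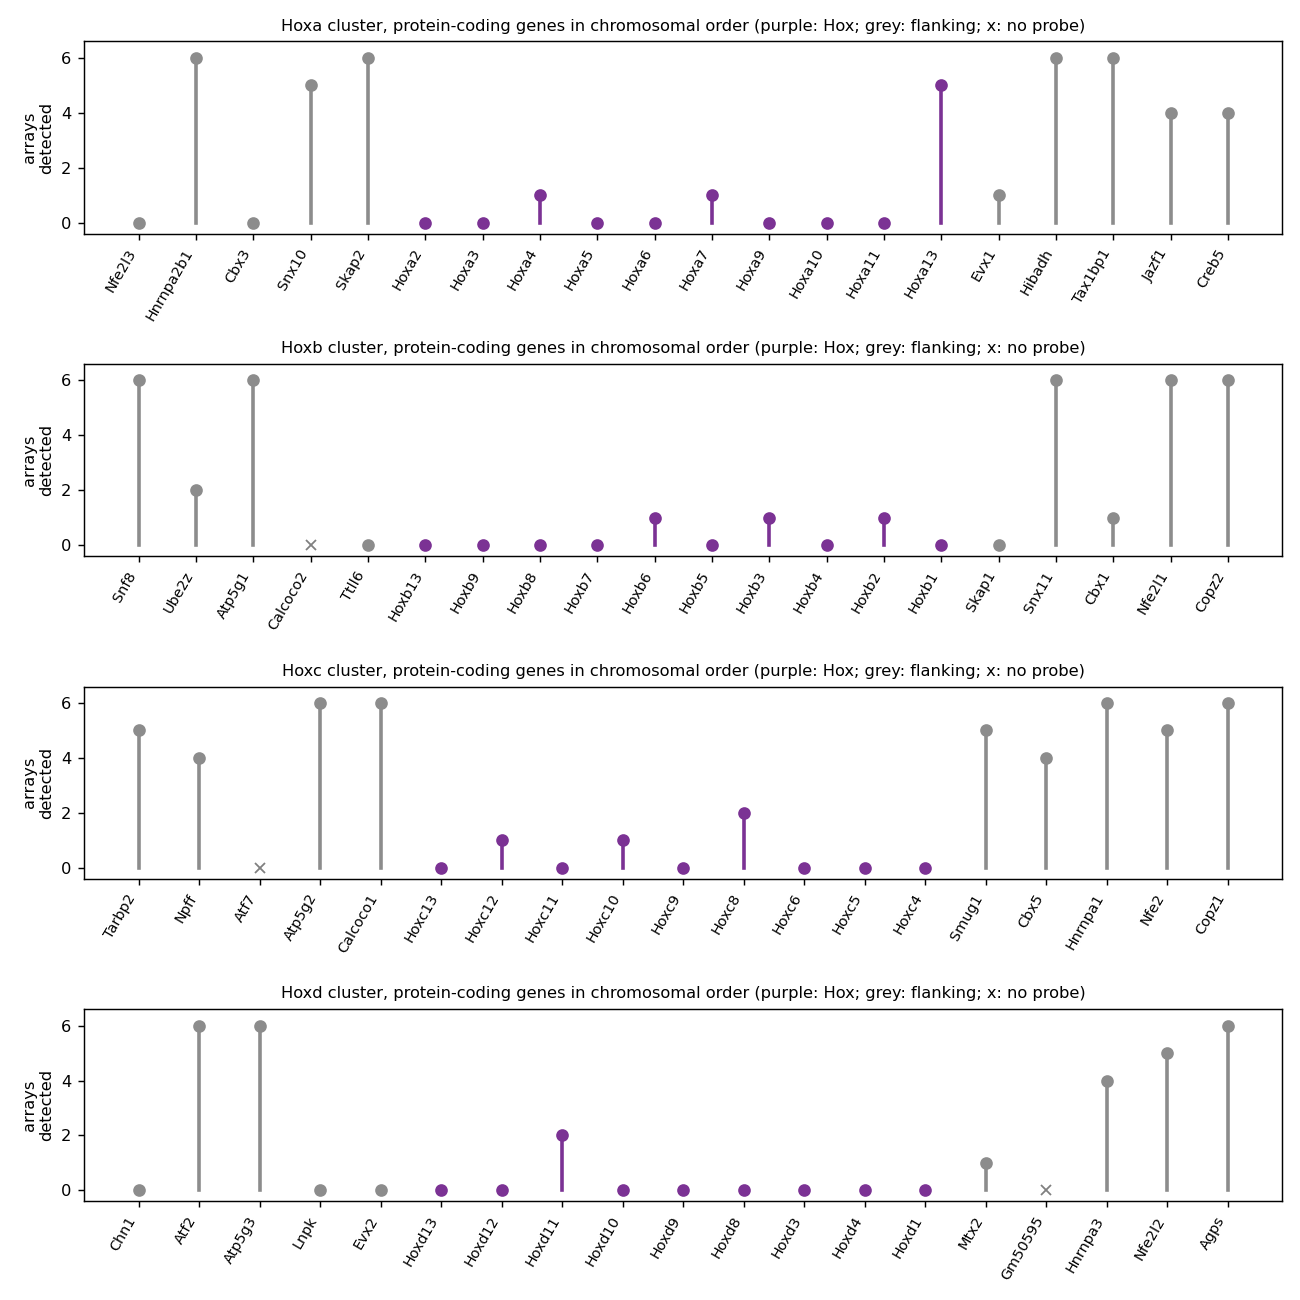
Number of arrays of 6 on which the best probe of each gene was detected (vertical axis), for the measured genes of the 4 Hox clusters and the nearest 5 genes on each side, in order of their lowest coordinate; purple marks Hox genes, grey flanking genes, and a cross a flanking gene without a probe. Of 37 flanking genes with a probe 16 reach 6 arrays, no Hox gene does, and Hoxa13 stands at 5.

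Blood cell markers were detected to different extents between the arrays. Hoxa7, Hoxa9 and Hoxa10 are known for their activity in blood progenitors. All 5 probes of Hoxa9 and Hoxa10 were below detection on every array, with p of 0.0652 or more. Of 24 neutrophil probes 11, 19 and 20 were detected on osteoblast replicates 1, 2 and 3 and 18, 17 and 15 on cementoblast replicates 1, 2 and 3. Their summed signal before normalization, background included, ran from 2207 to 32530 in osteoblasts and from 4636 to 21701 in cementoblasts. After normalization their mean log2 signal was 5.44, 7.35 and 6.99 on osteoblast replicates 1, 2 and 3. On cementoblast replicates 1, 2 and 3 that mean was 8.49, 7.35 and 6.07. Of the 24 probes 4 were detected nowhere, Mmp8 among them. B lineage probes were detected 3, 10 and 7 times of 13 in osteoblasts and 6, 3 and 5 times in cementoblasts, and progenitor and erythroid probes 3, 7 and 6 times of 12 and 3, 4 and 4 times. Hoxa7, Hoxc8 and Hoxb3 were detected on osteoblast replicate 2 or 3, where many marker probes and many probes of all kinds were detected. Hoxa4, Hoxb6 and Hoxc12 were detected on cementoblast arrays only. The log2 signal of Hoxa7 was 5.10 and not detected on osteoblast replicate 1, the array with the fewest neutrophil probes detected. The edge of detection on that array lay at a log2 signal of 5.11. On osteoblast replicates 2 and 3 it lay at 4.37 and 4.40, so log2 signals near background cannot be ranked between these arrays. The part of blood cells in these readings was not tested.

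Other cell types were followed in the same way. Endothelial probes were detected 3, 10 and 13 times of 15 on the osteoblast arrays and 12, 12 and 1 times on the cementoblast arrays, and epithelial probes 1, 2 and 1 times of 12 and 9, 8 and 1 times. The 10 markers of osteoblasts and cementoblasts were all measured, and 8 of them, osteocalcin (Bglap), Col1a1 and Sp7 included, were detected on all 6 arrays. The sort used the osteocalcin reporter, so Bglap checks the gate. No gene of these marker lists, nor of those for T cells, skeletal muscle and cartilage, passed limma's test over all genes. The medians were 0.91 for the neutrophil list (14 genes tested, the smallest p at Retnlg), 0.06 for the B lineage (5, Ebf1), 0.32 for the progenitor and erythroid list (5, Meis1), 0.96 for the endothelial list (10, Vwf) and 3.86 for the epithelial one (2, Ambn). They were -0.50 for osteoblasts and cementoblasts (10, Pth1r), 0.49 for cartilage (4, Col2a1), 0.28 for T cells (1, Zap70) and -0.49 for muscle (1, Des). These medians depended on the scaling. With 75th percentile scaling they were 0.08 for neutrophils, 0.17 for the B lineage, 0.16 for progenitors and erythroid cells, 0.27 for endothelium and 1.98 for epithelium. They were -1.25 for osteoblasts and cementoblasts, 0.13 for cartilage and 0.35 for T cells, and that of muscle turned to 0.25.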

How the data were processed

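RNA of 6 samples was amplified, biotinylated and hybridised to Illumina bead arrays, per the labels' protocols. The deposited non-normalized table gives linear bead intensity for 25697 probes. Detection p-values stand beside it, per the file headers, in steps of 1 part in 798. A second deposited table holds intensity values normalized by the authors, with lumi named in the submitters' processing notes; how lumi was run is not stated there. The replicate 3 columns were matched by tissue code and the replicate number in the description, since their titles bear another number; they rank probes exactly as the second table does. Symbols came from the platform annotation.

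The intensities were processed in R 4.3.3 by the neqc function (limma 3.58.1), which corrects background, adds an offset of 16, takes quantiles and gives log2 values. A probe entered the test when 3 or more arrays had detection p under 0.05, and the brightest such probe stood for its gene (8111 genes). lmFit and eBayes were used with Benjamini-Hochberg adjustment, and checked on simulated arrays. Nothing says whether same-numbered samples share mice, and the p-values measure the spread between these pools. The edge of detection is the lowest signal with a detection p under 0.05 on an array. Hox genes detected on at least 3 arrays, or on 2 of a group, were given on every array, and other lists by the genes past the test or the smallest p. Members and lists were chosen with earlier results of these data known. The precision is limited by the number of arrays.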

Additional observations from a re-analysis of the deposited data

How the results depend on the processing

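The count of Hox genes past limma's adjusted threshold was 0 under every alternative tried, also at an unadjusted p under 0.05. In most alternatives Hoxa13 was the only Hox gene tested, since the filter left out the others, so that count says little about them. With no filter 38 Hox genes were tested, and 50 Hox probes were tested with every probe fitted. With the stricter filter (detection p under 0.01) no Hox gene was tested. The Hoxa13 difference stayed above 0, from 0.092 with no background correction to 0.349 with the title number as a random block, and from 0.175 to 0.5 with single arrays left out. These settings reuse the same arrays. The 26 olfactory receptors tested, also near background, had medians above 0 too. They were 0.23 in the main fit, 0.40 with 75th percentile scaling and 0.12 with the submitters' values. The Hox probe detected on all 3 cementoblast arrays was lost at a detection p under 0.01 and under 0.001 (0 probes each), and the share of detected Hox readings fell to 1.33% and 0.00%, by construction of the stricter threshold. With single arrays left out that share ran from 4.40 to 6.80, the probes detected on all remaining cementoblast arrays stayed at 1, and those on all remaining osteoblast arrays ran from 0 to 2; the 2 were Hoxa13 and Hoxc8, without osteoblast replicate 1.

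Over all genes, 12 were higher and 14 lower in cementoblasts. The counts were 5 and 9 with the submitters' values, 5 higher with no background correction, 0 and 0 with 75th percentile scaling, 4 and 4 with no filter and 5 and 6 for every probe without a filter. They were 111 and 88 with array weights, and 23 lower with trend and robust variance. With single arrays left out, normalized and filtered again, they ran from 0 to 88 higher and from 0 to 61 lower; the highest counts came without cementoblast replicate 3 and the lowest without cementoblast replicate 2. The cause was not tested. With the replicate block they were 0 and 0, and with the title number as a random replicate block 38 and 36. Deviations of samples with the same number in their descriptions correlated at -0.356, 0.362 and 0.090 for numbers 1, 2 and 3. With 3 arrays in each group, such correlations cannot tell whether those samples are paired. The pairs numbered 2 and 3 also share a number in their titles; what the title number marks is not stated.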
